A study of Mus musculus with 9 samples.

Results

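Macrophage and monocyte transcripts were examined in 9 libraries of sorted T cells through 10 genes of the count table: Lyz2, Tyrobp, Il1b, Nos2, Cd68, Apoe, Ms4a7, Mmp9, Adgre1 and Arg1. They are 10 of the 45808 genes in the table, and they were picked by name from their levels in these same libraries, so their levels are given as a description with no test. Cd3e, Cd4 and Trac, which encode a CD3 chain, the CD4 co-receptor and the constant region of the T cell receptor alpha chain, were read in the same libraries for comparison. The largest values by far stood in 1 mouse: in anti-CTLA-4 replicate 2 the 10 genes summed to 7620.2 CPM (the count per 1000000 counts of genes), against 186 to 678 CPM in the remaining 8, while Cd3e had 0.590 CPM there, against 347 to 838 CPM in the other 8. Cd4 was also low in that library. Trac and the CD3 chain genes Cd3d and Cd3g were at their highest there, at 632, 696 and 649 CPM. Of 1756 genes with at least 5 CPM in all other 8 libraries, 39.9% were at least 10 times lower in it than in any. Its T cell genes were thus mixed, and whether that library holds the sort its label names cannot be decided from the counts. Results that rest on it are given with and without it.

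The libraries came from C57BL/6J mice carrying MC38, a mouse colon adenocarcinoma line, on day 12 after the tumour cells were injected. Groups were mice given anti-CTLA-4 (n = 3), mice given anti-PD-1 (n = 3) and Control mice (n = 3), and the series set out to compare how blockade of these inhibitory T cell receptors acts. All 9 libraries share 1 sort, for CD4 T cells with the costimulatory receptor ICOS on their surface, and each library is 1 mouse. Antibody clones, doses, the treatment of Control mice, the number of sorted cells and the purity of the sort are among the details that the sources used here do not give.

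Macrophages and monocytes are phagocytes that mature under colony stimulating factor 1 and the transcription factors PU.1 and C/EBP, and they are abundant in most solid tumours. They digest what they take up with lysozyme and lysosomal proteases, signal through receptors coupled to ITAM adaptors, release interleukin 1 beta, and use arginine either to make nitric oxide or to make ornithine. Resting T cells lack most of these products, which is why the genes serve as markers of myeloid cells in a T cell sort, though activated T cells can transcribe some of them at low levels.

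To show the start regions of genes that stand together in 1 library beside those that do not, promoters were read from RefSeq (GRCm38.p6, 250 bases before to 50 after the start, gene strand). The table used held 5 of the 10 genes and Cd3e of the 3 T cell genes. Capitals mark the PU.1 core GAGGAA or its reverse complement TTCCTC. Each is on the minus strand, and the intervals are chr10:117282223-117282522 for Lyz2, chr2:129371090-129371389 for Il1b, chr11:69666121-69666420 for Cd68, chr19:11336097-11336396 for Ms4a7, chr7:19699139-19699438 for Apoe and chr9:45009562-45009861 for Cd3e.
Lyz2: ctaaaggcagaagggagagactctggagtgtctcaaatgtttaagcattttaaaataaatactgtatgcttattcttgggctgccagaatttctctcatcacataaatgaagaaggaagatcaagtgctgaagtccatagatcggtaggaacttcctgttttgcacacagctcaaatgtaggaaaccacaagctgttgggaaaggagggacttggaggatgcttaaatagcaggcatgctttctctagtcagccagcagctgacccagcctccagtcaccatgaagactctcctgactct
Il1b: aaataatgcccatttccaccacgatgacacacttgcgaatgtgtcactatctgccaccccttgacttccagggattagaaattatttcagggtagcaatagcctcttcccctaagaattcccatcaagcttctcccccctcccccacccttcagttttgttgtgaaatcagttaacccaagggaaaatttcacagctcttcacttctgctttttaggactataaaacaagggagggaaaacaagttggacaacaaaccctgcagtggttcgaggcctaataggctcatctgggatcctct
Cd68: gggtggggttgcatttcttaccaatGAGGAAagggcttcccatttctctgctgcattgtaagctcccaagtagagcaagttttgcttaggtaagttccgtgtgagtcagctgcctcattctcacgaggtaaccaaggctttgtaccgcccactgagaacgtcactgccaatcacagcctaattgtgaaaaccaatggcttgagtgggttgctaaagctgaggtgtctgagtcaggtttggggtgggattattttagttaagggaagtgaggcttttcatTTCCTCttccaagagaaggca
Ms4a7: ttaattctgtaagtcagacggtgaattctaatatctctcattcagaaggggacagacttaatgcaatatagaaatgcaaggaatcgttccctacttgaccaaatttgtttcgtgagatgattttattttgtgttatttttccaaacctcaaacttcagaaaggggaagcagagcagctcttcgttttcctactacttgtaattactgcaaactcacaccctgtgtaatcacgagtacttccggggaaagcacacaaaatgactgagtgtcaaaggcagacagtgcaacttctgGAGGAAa
Apoe: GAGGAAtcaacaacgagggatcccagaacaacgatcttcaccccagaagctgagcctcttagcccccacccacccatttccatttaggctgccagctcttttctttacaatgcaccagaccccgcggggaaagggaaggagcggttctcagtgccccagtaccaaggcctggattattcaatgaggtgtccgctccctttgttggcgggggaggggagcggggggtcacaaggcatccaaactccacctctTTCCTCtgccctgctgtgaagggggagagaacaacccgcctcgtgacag
Cd3e: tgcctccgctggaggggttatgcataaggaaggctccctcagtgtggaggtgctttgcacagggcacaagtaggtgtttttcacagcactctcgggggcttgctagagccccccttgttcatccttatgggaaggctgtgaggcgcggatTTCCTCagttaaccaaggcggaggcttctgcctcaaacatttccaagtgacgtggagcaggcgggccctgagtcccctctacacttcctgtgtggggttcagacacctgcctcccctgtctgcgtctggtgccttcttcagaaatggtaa
The PU.1 core was found 2 times in the Cd68 promoter, 1 time in that of Ms4a7, 2 times in that of Apoe and 1 time in that of the T cell gene Cd3e, and 0 times in those of Lyz2 and Il1b. On either strand it occurs in 28.3% of the 32851 promoters of 300 bases in the table. A C/EBP pattern, TTNNGNAA or its reverse complement, was found 1 time each in Lyz2 and Il1b, 3 times each in Cd68 and Ms4a7, 0 times in Apoe and 1 time in Cd3e, against 40.7% of all promoters. A kappa B consensus, on either strand, was in none of the 6 and in 1.20% of all. Of the promoters shown, those of Lyz2, Il1b, Cd68 and Ms4a7 belong to genes that peaked in anti-CTLA-4 replicate 2, and those of Apoe and Cd3e to genes close to 0 in it.

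Gene counts summed to 25530333 to 41508589 per library, so that 3 counts, the floor used here, equal 0.0723 to 0.118 CPM. Depth did not set anti-CTLA-4 replicate 2 apart, but the number of genes did: 2662 genes reached 5 CPM in it, against 4209 to 6309 genes in the other 8 libraries. It was also at the end of the range in how its alignments were counted, with the lowest share outside features (27.1%) and the highest shares not unique (31.1%), ambiguous (1.13%) and in genes (40.7%), and the part of these in its levels was not tested. The reads carry no molecular identifiers, and floors cover counting error only. The 10 genes gave values that were either absent or plain: of 90 values, 33 were below 1 CPM and none of these exceeded 0.482 CPM, 1 lay between 1 and 5 CPM, and 56 were at 5 CPM or more. In bulk libraries, fewer cells of a type and less RNA per cell cannot be told apart, and this holds for every level that follows.

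Tyrobp (chr7:30413760-30417585, plus strand) encodes DAP12, the ITAM adaptor of activating receptors on myeloid and NK cells. It stood at 6.2, 1874 and 97.9 CPM in anti-CTLA-4 replicates 1 to 3, at 0.274, 146 and 0.380 CPM in anti-PD-1 replicates 1 to 3, and at 42.5, 21.3 and 58.2 CPM in Control replicates 1 to 3. The single high library was 12.8 times the next one, and without it the anti-CTLA-4 values lay on both sides of the Control values. Anti-PD-1 replicates 1 and 3 were the only libraries under 1 CPM.

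Adgre1 (chr17:57358691-57483527, plus strand) encodes F4/80, a surface receptor that defines mature mouse macrophages. It stood at 0.0985, 11.1 and 0.0306 CPM in anti-CTLA-4 mice, at 0.0392, 169 and 116 CPM in anti-PD-1 mice, and at 0.0482, 90.5 and 0.0279 CPM in Control mice. The library that led for Tyrobp stood well behind 3 libraries of the other groups here. The remaining 5 libraries were below 0.1 CPM, with 3 counts or fewer.

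Ms4a7 (chr19:11321039-11336146, minus strand) encodes a four-span membrane protein of macrophages and microglia. It stood at 2.46, 521 and 0.0918 CPM in anti-CTLA-4 mice, at 20.8, 127 and 72.6 CPM in anti-PD-1 mice, and at 14.8, 0.161 and 13.5 CPM in Control mice. All 3 anti-PD-1 values were above all 3 Control values. It was the 1 gene of the 10 whose anti-PD-1 and Control values did not overlap, and 10.8% of the 7858 genes tested in that comparison did not overlap in either direction (3.45% with anti-PD-1 higher), so 1 of 10 is close to the background.

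**Figure D1:**
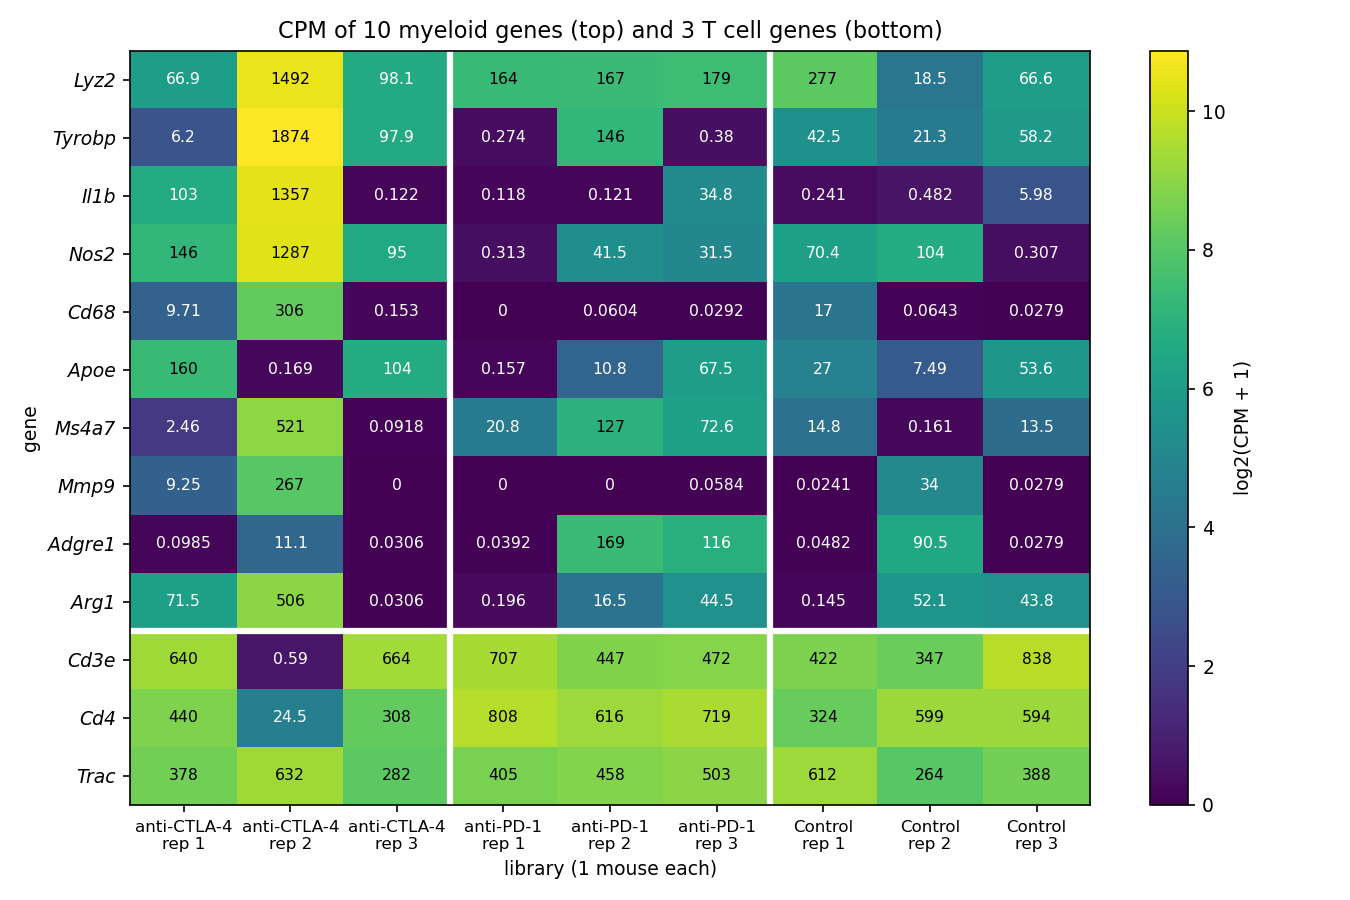
Heat map of the 10 myeloid genes (upper rows) and of Cd3e, Cd4 and Trac (lower rows) in the 9 libraries (columns, 1 mouse each, with white lines between groups); colour is log2(CPM + 1) and the printed value in each cell is CPM. Anti-CTLA-4 replicate 2 is the highest library for 8 of the 10 genes, and Cd3e stands at 0.590 CPM in it.

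Lyz2 (chr10:117277331-117282321, minus strand) encodes lysozyme M, which cleaves bacterial cell walls. It stood at 66.9, 1492 and 98.1 CPM in anti-CTLA-4 mice, at 164, 167 and 179 CPM in anti-PD-1 mice, and at 277, 18.5 and 66.6 CPM in Control mice. It was the only one of the 10 above 1 CPM in all 9 libraries, and the anti-PD-1 libraries were close to each other, with a mean of 170 ± 7.95 CPM (SD, n = 3). Lyz1, a near-identical copy, was at no more than 0.09 CPM in any library. How reads shared by both copies were counted was not tested, so the level of Lyz2 is uncertain.

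Cd68 (chr11:69664213-69666153, minus strand) encodes macrosialin, a glycoprotein of macrophage lysosomes. It stood at 9.71, 306 and 0.153 CPM in anti-CTLA-4 mice, at 0, 0.0604 and 0.0292 CPM in anti-PD-1 mice, and at 17.0, 0.0643 and 0.0279 CPM in Control mice. Only anti-CTLA-4 replicates 1 and 2 and Control replicate 1 exceeded 1 CPM, and the anti-PD-1 libraries held at most 2 counts, under the floor. Anti-CTLA-4 replicate 2 was 18.0 times the next library, the widest gap among the 10 genes.

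Mmp9 (chr2:164940780-164955850, plus strand) encodes gelatinase B, a secreted protease that cuts denatured collagen. It stood at 9.25, 267 and 0 CPM in anti-CTLA-4 mice, at 0, 0 and 0.0584 CPM in anti-PD-1 mice, and at 0.0241, 34 and 0.0279 CPM in Control mice. Like Cd68, it was plainly present in 3 libraries, but Control replicate 2 took the place of Control replicate 1.

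Il1b (chr2:129364570-129371139, minus strand) encodes interleukin 1 beta, an inflammatory cytokine made mainly by monocytes and macrophages. It stood at 103, 1357 and 0.122 CPM in anti-CTLA-4 mice, at 0.118, 0.121 and 34.8 CPM in anti-PD-1 mice, and at 0.241, 0.482 and 5.98 CPM in Control mice. The mean was 487 ± 756 CPM over the anti-CTLA-4 libraries, 11.7 ± 20.02 CPM over the anti-PD-1 libraries and 2.23 ± 3.25 CPM over the Control libraries (SD, n = 3 each). Without replicate 2 the anti-CTLA-4 mean was 51.3 ± 72.4 CPM (SD, n = 2). Anti-CTLA-4 replicate 3 was as low as the lowest libraries of the other groups, so the groups overlapped. The antisense gene Il1bos overlaps Il1b, and the sources used here do not give the strand setting of the counting.

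Nos2 (chr11:78920787-78960254, plus strand) encodes inducible nitric oxide synthase, which turns arginine into nitric oxide and citrulline. It stood at 146, 1287 and 95.0 CPM in anti-CTLA-4 mice, at 0.313, 41.5 and 31.5 CPM in anti-PD-1 mice, and at 70.4, 104 and 0.307 CPM in Control mice. All anti-CTLA-4 values were above all anti-PD-1 values, also with replicate 2 set aside, while Control replicate 2 lay among the anti-CTLA-4 values. Nos2 and Cd68 were the 2 genes of the 10 whose anti-CTLA-4 and anti-PD-1 values did not overlap, and 9.76% of all genes tested did not overlap in that comparison (2.81% with anti-CTLA-4 higher). The 10 genes were chosen from these values, and nothing is read from that count. For Cd68 the gap rests on 5 counts in anti-CTLA-4 replicate 3, against at most 2 in an anti-PD-1 library, near the floor of 3 counts.

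Arg1 (chr10:24915221-24927484, minus strand) encodes arginase 1, which splits arginine into ornithine and urea and so draws on the same substrate as Nos2. It stood at 71.5, 506 and 0.0306 CPM in anti-CTLA-4 mice, at 0.196, 16.5 and 44.5 CPM in anti-PD-1 mice, and at 0.145, 52.1 and 43.8 CPM in Control mice. Each group held 1 library below 0.2 CPM. Nos2 and Arg1 both reached 1 CPM in 5 libraries: anti-CTLA-4 replicates 1 and 2, anti-PD-1 replicates 2 and 3, and Control replicate 2. In Control replicate 2 these genes stood at 104 and 52.1 CPM, beside 146 and 71.5 CPM in anti-CTLA-4 replicate 1.

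Apoe (chr7:19696109-19699188, minus strand) encodes apolipoprotein E, a lipid carrier made by tissue macrophages. It stood at 160.1, 0.169 and 104 CPM in anti-CTLA-4 mice, at 0.157, 10.8 and 67.5 CPM in anti-PD-1 mice, and at 27, 7.49 and 53.6 CPM in Control mice. It did not follow the 8 genes that peaked in anti-CTLA-4 replicate 2: anti-CTLA-4 replicate 2, with 6 counts of Apoe, was among the lowest libraries, and the remaining anti-CTLA-4 libraries were the highest of all.

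Per kilobase of exon, the order of the 10 genes in anti-CTLA-4 replicate 2 was led by Tyrobp at 2809 CPM per kb, Lyz2 at 1134 CPM per kb and Il1b at 712 CPM per kb. Nos2 followed at 292, Cd68 at 243, Arg1 at 227, Ms4a7 at 117 and Mmp9 at 75.4 CPM per kb. Adgre1 at 3.43 CPM per kb and Apoe at 0.0789 CPM per kb closed the order. Trac stood at 676 CPM per kb in the same library, next to Il1b. Cd4 stood at 6.07 CPM per kb and Cd3e at 0.145 CPM per kb.

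The T cell reference genes did not move as 1 group in that library. Cd3e stood at 640.5, 0.590 and 664 CPM in anti-CTLA-4 mice, at 707, 447.2 and 472 CPM in anti-PD-1 mice, and at 422, 347 and 838 CPM in Control mice. The value in anti-CTLA-4 replicate 2 rests on 21 counts. Cd4 stood at 439.9, 24.5 and 308 CPM in anti-CTLA-4 mice, at 808, 616 and 719 CPM in anti-PD-1 mice, and at 324, 599 and 594 CPM in Control mice.

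Cd4 was thus lowest in the library that was lowest for Cd3e, but still well above the floor. Trac went the other way, at 378, 632 and 282 CPM in anti-CTLA-4 mice, 405, 458 and 503 CPM in anti-PD-1 mice, and 612, 264 and 388 CPM in Control mice. Cd3d and Cd3g, which encode further CD3 chains, also peaked in anti-CTLA-4 replicate 2, with 696 and 649 CPM, against 55.3 to 289 CPM and 115 to 579 CPM in the remaining 8. Foxp3, the lineage factor of regulatory T cells, had 898 CPM in it, against 2362 to 3901 CPM in the other 8, and Ptprc, the pan-leukocyte CD45, at 501 CPM, against 2007 to 3733 CPM.

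Over 19 T cell receptor and CD4 lineage genes, the sum was 5288 CPM in anti-CTLA-4 replicate 2, against 13504.9 to 18322.7 CPM in the remaining 8. Cd3e and Cd4 were each at least 10 times lower in anti-CTLA-4 replicate 2 than in every other library. The same held for 701 of the 1756 genes of the whole table with at least 5 CPM in all other 8 libraries, or 39.9%, so losses of this size in that library were not particular to these genes.

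Set against Cd3e, Cd4 and Trac summed within each library, the 10 genes gave ratios of 0.394, 11.6 and 0.315 in anti-CTLA-4 mice, 0.0970, 0.446 and 0.323 in anti-PD-1 mice, and 0.331, 0.272 and 0.133 in Control mice. The sum of the 10 genes exceeded that of these 3 T cell genes in 1 library only, and the remaining libraries of the 3 groups overlapped. This holds for the 10 chosen genes and not for myeloid transcripts at large. As a share of all gene counts, the 10 genes took 0.0575%, 0.762% and 0.0395% in anti-CTLA-4 mice, 0.0186%, 0.0678% and 0.0547% in anti-PD-1 mice, and 0.0449%, 0.0329% and 0.0242% in Control mice.

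**Figure D2:**
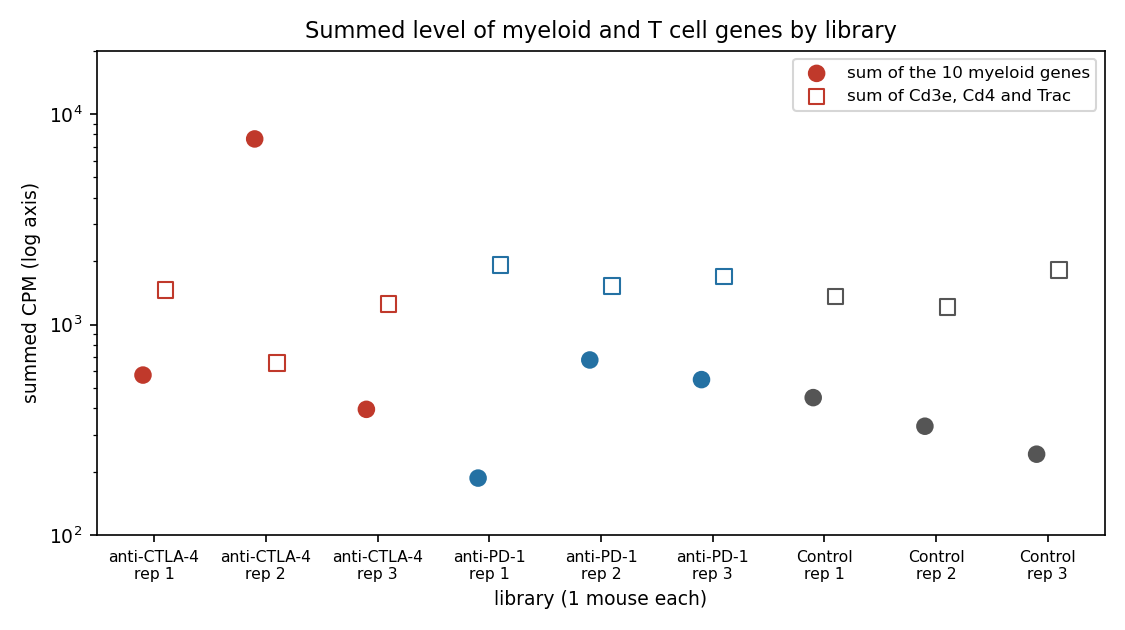
Summed CPM (log axis) of the 10 myeloid genes and of Cd3e, Cd4 and Trac in each library; each point is 1 library, with libraries along the horizontal axis, coloured by group, filled circles for the myeloid sum and open squares for the T cell sum. The myeloid sum lies above the T cell sum in anti-CTLA-4 replicate 2 only, at 7620.2 against 657 CPM.

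By group, the 10-gene sum averaged 2864 ± 4120.4 CPM in anti-CTLA-4 libraries, 471 ± 255 CPM in anti-PD-1 libraries and 339.95 ± 104 CPM in Control libraries (SD, n = 3 each). Without replicate 2 the anti-CTLA-4 mean was 485 ± 127 CPM (n = 2), a value that the anti-PD-1 spread covers. The anti-CTLA-4 and Control values overlapped for all 10 genes, where 11.9% of all genes tested did not overlap in that comparison. The comparisons share libraries: each antibody was set against the same Control libraries.

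The libraries outside that one were not alike in which of the 10 genes they held. Counting genes at 1 CPM or more, anti-CTLA-4 libraries held 9, 9 and 4 of the 10, anti-PD-1 libraries 2, 7 and 7, and Control libraries 6, 7 and 6. The gene with the largest CPM was Apoe in anti-CTLA-4 replicates 1 and 3, Tyrobp in anti-CTLA-4 replicate 2, Adgre1 in anti-PD-1 replicate 2, Nos2 in Control replicate 2, and Lyz2 in the remaining 4 libraries. In anti-PD-1 replicate 1 only Lyz2 and Ms4a7 were present, and Lyz2 made up 88.3% of the sum.

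The genes shared libraries to different degrees. Lyz2 aside, in 10 of 36 pairs the rarer gene reached 1 CPM only in libraries where the other did too, such as Cd68 with Tyrobp, Nos2 and Ms4a7, and Adgre1 with Nos2 and Arg1. Cd68 reached 1 CPM in 3 libraries and Adgre1 in 4, but they shared 1, anti-CTLA-4 replicate 2. Il1b and Adgre1, each in 4 libraries, shared 2. Tyrobp and Nos2, each in 7 libraries, shared 6.

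In anti-CTLA-4 replicate 2, 8 of the 10 genes had their highest level of all libraries, against 1130 of 11126 genes that reached 5 CPM in some library, or 10.2%. Tyrobp, Il1b and Cd68 were at least 10 times every other library, as were 206 of the 11126 genes, or 1.85%. The counts of the 10 genes describe how they were chosen and are no support for the library standing apart. Of all counts of a gene over the 9 libraries, that library held 91.5% for Cd68, 91.4% for Il1b, 87.6% for Mmp9 and 83.9% for Tyrobp. It held 73.9% for Nos2, 70.7% for Arg1, 68.8% for Ms4a7 and 59.9% for Lyz2. For Adgre1 the share was 3.09% and for Apoe 0.0422%.

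**Figure D3:**
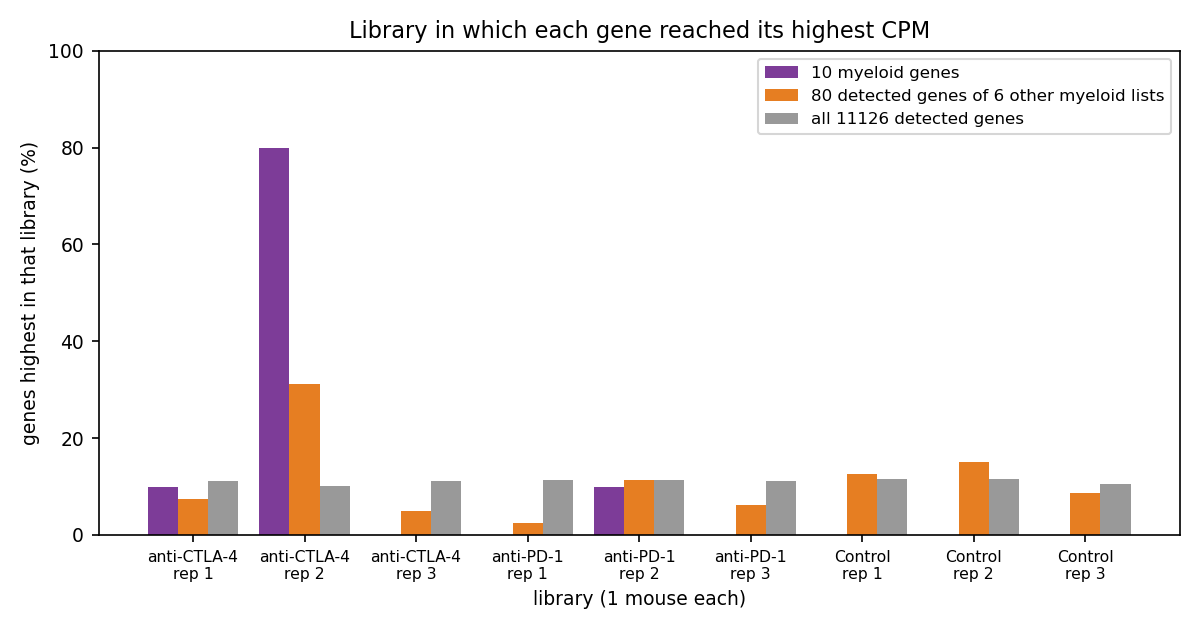
Percent of genes whose highest level falls in each library, for the 10 myeloid genes, the other 6 myeloid lists and all genes that reached 5 CPM in some library. Anti-CTLA-4 replicate 2 holds the highest level of 25 of 80 genes of the 6 lists (31.25%) and of 10.2% of all genes.

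Other genes of the same roles came from 6 lists with 105 genes in the table, of which 80 reached 5 CPM in some library and 20 were at 0 in every library. Anti-CTLA-4 replicate 2 had the highest level for 25 of the 80, or 31.25%, above the 10.2% of all genes. At 100 CPM in some library, these shares were 45.0% and 17.1%. The lists were chosen with earlier results of these data known, so these shares are a description only. Anti-CTLA-4 replicate 2 was also below 1 CPM for 37 of the 80, or 46.3%, beside 72.9% of all genes. The median over the 80 genes of the log2 ratio of this library to the median of the other 8, with 1 CPM added, was 0.00, against -0.05 over all genes and 4.80 over the 10 genes. The myeloid lists were therefore mixed in that library, with some genes at their peak and many absent.

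Among 23 detected macrophage and monocyte identity genes, 9 peaked in anti-CTLA-4 replicate 2. Csf1r, the receptor for colony stimulating factor 1, stood at 68.4, 131 and 98 CPM in anti-CTLA-4 mice, at 10.7, 0.0906 and 43.5 CPM in anti-PD-1 mice, and at 116, 0.161 and 56.8 CPM in Control mice. It was therefore present in 7 libraries, with the peak library barely above Control replicate 1. Mertk, a receptor for apoptotic cells, had 86.7 CPM in anti-CTLA-4 replicate 2 and no more than 0.0877 CPM in the other 8.

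Complement C1qa was absent from the same library, at 0.0843 CPM, and stood at 110.2 CPM in anti-CTLA-4 replicate 1, while C1qc, whose product joins it in the C1q complex, was at 417 CPM in replicate 2 and at 297 CPM in replicate 1. Spi1, which encodes PU.1, was at 0 counts in 8 libraries and at 46.4 CPM in anti-PD-1 replicate 1. Aif1 was at 0 in every library, and Cebpb, a C/EBP factor, was at no more than 0.028 CPM in any. Cd14, the LPS co-receptor, was at 0 counts in anti-CTLA-4 replicate 2 and reached 1 CPM only in Control replicate 1, at 7.25 CPM. The list came to 2877 CPM in anti-CTLA-4 replicate 2, against 844 to 2691 CPM in the remaining 8, of which Ccr2, a chemokine receptor that T cells also carry, contributed 800 CPM, against 611 to 2127 CPM.

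Of 10 detected Fc receptor and ITAM adaptor genes, 3 peaked in anti-CTLA-4 replicate 2: Fcgr2b, Clec4e and Clec7a. Clec7a, which encodes the beta-glucan receptor Dectin-1, stood at 71.1, 662 and 0.0306 CPM in anti-CTLA-4 mice, at 0.353, 52.7 and 0.175 CPM in anti-PD-1 mice, and at 0.169, 26.6 and 44.3 CPM in Control mice. Its peak was in the same library as that of Tyrobp. Fcer1g, the common Fc receptor gamma chain and the other main ITAM adaptor of myeloid cells, was at 176, 0.0562 and 0 CPM in anti-CTLA-4 mice and at no more than 3.76 CPM in the anti-PD-1 and Control libraries.

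Fcer1g was therefore plain in the anti-CTLA-4 library where Tyrobp was low, and near 0 in the one where Tyrobp peaked. Hcst, the DAP10 adaptor that T cells also use, was at 0.141 CPM in anti-CTLA-4 replicate 2, against 45.4 to 337 CPM in the remaining 8. Syk, the kinase that ITAM adaptors recruit, was at 0 in every library.

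The interleukin 1 and inflammatory genes followed Il1b least. Of 15 detected, 2 peaked in anti-CTLA-4 replicate 2, Tlr2 and Cd40, and the list summed to 144 CPM there, against 139.6 to 597 CPM in the remaining 8. Il1rn, the receptor antagonist of interleukin 1, stood at 19, 1.29 and 199 CPM in anti-CTLA-4 mice, at 0.196, 173 and 123 CPM in anti-PD-1 mice, and at 282, 22.4 and 287 CPM in Control mice. Il1r2, the decoy receptor, was at 0.0843 CPM in anti-CTLA-4 replicate 2, against 30.9 to 186 CPM in the other 8. The library with the most Il1b held very little of either inhibitor, and Tnf, at 0.0281 CPM in it, was under the floor. Low levels were common in that library: 72.9% of the 11126 genes at 5 CPM in some library were below 1 CPM there. Its low level of Tnf was therefore not particular to that gene. Il1r2 was among the 1756 genes with at least 5 CPM in all other 8 libraries, of which 39.9% were at least 10 times lower in anti-CTLA-4 replicate 2. Il1rn, at 1.29 CPM in it, was lower still in anti-PD-1 replicate 1, at 0.196 CPM. Il18, Nlrp3, Il6, Cxcl2 and Cxcl3 were at 0 in every library.

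Of the 7 detected arginine and nitric oxide genes, Slc7a2 and Ass1 peaked in anti-CTLA-4 replicate 2. Slc7a2, the inducible arginine transporter of macrophages, stood at 0, 567 and 0 CPM in anti-CTLA-4 mice, at 0.0392, 0.0302 and 0.0877 CPM in anti-PD-1 mice, and at 1.37, 0.0643 and 34.8 CPM in Control mice. It was all but confined to 1 anti-CTLA-4 library and Control replicate 3. Ass1, which rebuilds arginine from citrulline, stood at 0.427, 1080.1 and 123 CPM in anti-CTLA-4 mice, at 4.82, 0.151 and 11.2 CPM in anti-PD-1 mice, and at 51.0, 0.450 and 69.3 CPM in Control mice. Slc7a1, the housekeeping transporter, ran the other way, at 0.787 CPM in anti-CTLA-4 replicate 2, against 17.2 to 338 CPM in the other 8. Gch1, which makes the cofactor of nitric oxide synthase, was at 0 counts in anti-CTLA-4 replicate 2. It was plain only in Control replicate 2, at 69.3 CPM, and at no more than 1.31 CPM in any other library.

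Among the 6 myeloid lists, lysosome and lipid genes stood out most by summed level, which rested on a few genes, Psap most. Of the 18 detected, 7 were below 1 CPM in anti-CTLA-4 replicate 2. The median log2 ratio of that library to the median of the other 8 was -0.16 over these genes. Of 18 detected, Ctsb, Ctsl, Ctss, Ctsz, Psap and Cd36 peaked in anti-CTLA-4 replicate 2, and the list summed to 10026 CPM there, against 1341 to 2873 CPM in the remaining 8. Psap, the precursor of the saposins, stood at 163, 4805 and 863 CPM in anti-CTLA-4 mice, at 370.4, 457 and 664 CPM in anti-PD-1 mice, and at 411, 416 and 326 CPM in Control mice. Ctsb, the protease cathepsin B, stood at 36.8, 1496 and 198 CPM in anti-CTLA-4 mice, at 363, 251 and 63.1 CPM in anti-PD-1 mice, and at 102, 142 and 86.7 CPM in Control mice. Both are also made by T cells, and both were plain in all 9 libraries.

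Of 7 detected metalloproteinases and inhibitors, 3 peaked with Mmp9 in the same library: Mmp12, Mmp14 and Timp1. Mmp12, the macrophage elastase, stood at 89.8, 616 and 46.8 CPM in anti-CTLA-4 mice, at 10.5, 14.2 and 90.7 CPM in anti-PD-1 mice, and at 58.7, 0.418 and 7.49 CPM in Control mice. Mmp2 was absent, at 0.0562 CPM in anti-CTLA-4 replicate 2, and stood at 73.5 CPM in anti-CTLA-4 replicate 1.

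**Figure D4:**
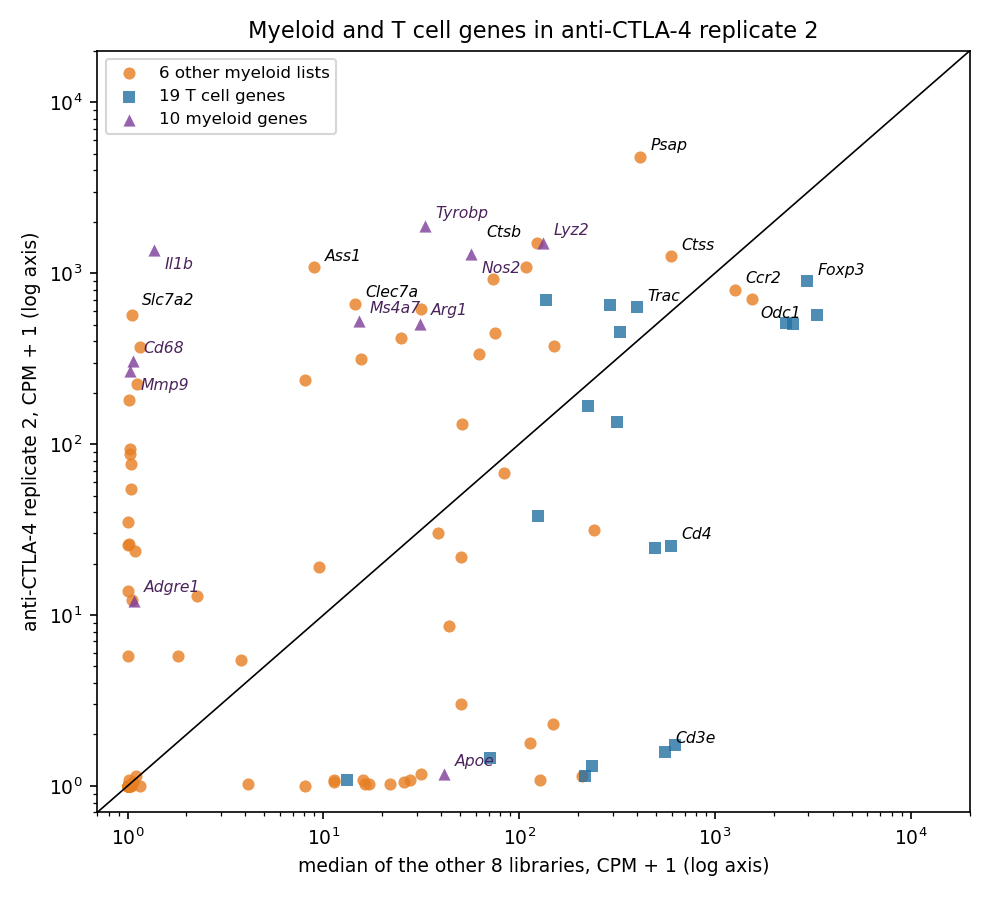
Level in anti-CTLA-4 replicate 2 (vertical, CPM + 1, log axis) against the median of the other 8 libraries (horizontal, CPM + 1, log axis) for the 10 myeloid genes, the 6 other myeloid lists and 19 T cell genes; each point is a gene and the line marks equal levels. Tyrobp, Il1b and Nos2 lie far above the line and Apoe below it, while Cd3e and Cd4 lie below it and Trac above.

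Markers of other cell types were read in the same library, and their part in the levels above was not tested. Fibroblast genes came to 1597 CPM in anti-CTLA-4 replicate 2, against 31.4 to 378 CPM in the remaining 8. Of these, Col1a1 was at 369 CPM, Col1a2 at 615 CPM and Col3a1 at 603 CPM in it. Dcn, a fibroblast proteoglycan, was at 0.0281 CPM in it, against 0.0302 to 67.3 CPM in the other 8, and Pdgfrb and Fap were at 0 in every library. Neutrophil genes summed to 0 CPM, against 0.0279 to 71.1 CPM in the other 8, and 6 of these 12 genes were at 0 in every library. NK cell genes summed to 0 CPM in it, against 0 to 28.8 CPM in the remaining 8, with 5 of 6 genes at 0 in every library, and all 5 mast cell genes were at 0 in every library. Dendritic cell genes summed to 233 CPM, against 18.3 to 714 CPM, and B cell genes, nearly all of it Ighm, to 1051 CPM, against 405 to 1089 CPM. CD8 T cell, endothelial, epithelial and erythroid genes each summed to under 0.1 CPM in it. In the other 8 libraries these sums were 0 to 125, 0.0279 to 184, 0 to 57.7 and 0 to 2.48 CPM, in that order. At 0 in every library were 1 of 2, 4 of 5, 5 of 7 and 4 of 5 of these genes.

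Tests across all genes asked whether the related myeloid genes differed between treatments, with edgeR's quasi-likelihood test on 7858 genes and Benjamini-Hochberg adjusted p. Of the 105 genes in the 6 lists, 57 were tested. In anti-CTLA-4 against Control, 1 of 57 was called, Ctsb, beside 29 of 7858 genes or 0.369%. Of the 57 changes, 33 were positive with a median log2 change of 0.51, against a median of 0.01 over all genes, and 12 of 57 (21.1%) had an unadjusted p under 0.05, beside 889 of 7858 genes (11.3%).

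Ctsb averaged 577 ± 799.8 CPM in anti-CTLA-4 libraries and 110.1 ± 28.4 CPM in Control libraries (SD, n = 3 each), and its log2 fold change was 3.87 ± 1.01 (approximate SE; edgeR adjusted p = 0.0389). That fold was fitted with TMM factors, which the CPM means do not carry, and its size moved with the scaling. It was 2.40 with library totals only and 6.95 with RLE factors, and neither was called (edgeR adjusted p = 0.549 and 0.347). The anti-CTLA-4 values lay on both sides of the Control values, being higher in 2 of 3 libraries. The call rested on replicate 2: without it the log2 fold change was 0.31 and the edgeR adjusted p was 1, the top of a range of 0.0058 to 1 over 15 alternatives, 12 of which lost the call.

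In anti-PD-1 against Control, 0 of the 57 were called by edgeR, beside 6 of all genes or 0.0764%. An unadjusted p under 0.05 was found for 6 of the 57 (10.5%), beside 472 of 7858 genes (6.01%). DESeq2 called 5 of the 35 list genes to which it gave an adjusted p (14.3%), Clec4d, Lgmn, Mmp2, Myd88 and Tnf, all lower in anti-PD-1, beside 749 of 6266 genes (11.95%). The changes were positive for 29 of the 57, with a median log2 change of 0.02, against 0.07 over all genes.

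In anti-CTLA-4 against anti-PD-1, 2 of the 57 were called, beside 65 of all genes or 0.827%. Both belong to arginine handling. Ass1 averaged 401 ± 591 CPM in anti-CTLA-4 libraries and 5.38 ± 5.53 CPM in anti-PD-1 libraries (SD, n = 3 each), with a log2 fold change of 7.66 ± 1.68 (approximate SE; edgeR adjusted p = 0.00335). That fold, too, was fitted with TMM factors. It was 6.24 with library totals only and 10.67 with RLE factors, and Ass1 was not called in those fits (edgeR adjusted p = 0.370 and 0.201). Slc7a2 averaged 189 ± 327 CPM in anti-CTLA-4 libraries and 0.0523 ± 0.0309 CPM in anti-PD-1 libraries (SD, n = 3 each; edgeR adjusted p = 0.00147), and no fold is given because the anti-PD-1 libraries were at or under the floor. Without anti-CTLA-4 replicate 2 neither was called, with edgeR adjusted p of 0.776 for Ass1 and 0.823 for Slc7a2, within ranges of 5.54e-05 to 0.776 over 15 alternatives and 0.000172 to 1 over 13.

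Of the 57 changes in anti-CTLA-4 against anti-PD-1, 34 were positive, with a median log2 change of 1.65, against -0.05 over all genes. With anti-CTLA-4 replicate 2 left out, edgeR called 0 of 64 myeloid list genes in each of the 3 comparisons, and an unadjusted p under 0.05 was found for 4 (6.25%) in anti-CTLA-4 against Control, 5 (7.81%) in anti-PD-1 against Control and 4 (6.25%) in anti-CTLA-4 against anti-PD-1. Over all 9308 genes tested these shares were 4.40%, 8.11% and 7.86%. DESeq2 was not run without that library. The median log2 change of the list was then -0.21, -0.16 and 0.02 in these comparisons, against -0.12, 0.03 and -0.20 over all genes.

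Genes outside the lists that followed the 10 most closely over the 9 libraries were sought among 5550 genes that reached 100 CPM in some library. Likeness was the root mean square difference in centred log2(CPM + 1) from the median profile of the 10 genes, and its median over the 5550 genes was 3.63. The closest was Mme, which encodes the peptidase neprilysin, with a difference of 0.952. It stood at 69.0, 358 and 8.91 CPM in anti-CTLA-4 mice, at 2.31, 74.7 and 15.2 CPM in anti-PD-1 mice, and at 49.8, 20.5 and 29.3 CPM in Control mice. Its peak and its trough fell in the libraries where the 10-gene sum was highest and lowest.

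The next were Ssbp1 at 1.03, which encodes a mitochondrial DNA binding protein, Arfgef1 at 1.13, Ppp1r3b at 1.23, Gpx1 at 1.25, Ppfibp1 at 1.26, Ubp1 at 1.27 and Mlip at 1.27. All 8 had their peak in anti-CTLA-4 replicate 2. The 10 genes themselves lay between 1.5 for Cd68 and 3.47 for Apoe on this measure. The 8 were picked for small differences, so their being nearer, and peaking in the same library, follows from the choice. These differences describe 9 libraries that differ in depth and in genes detected.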

How the data were processed

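Libraries of ICOS+ CD4 T cells from 9 mice were made with a kit for single-cell amounts of RNA and read as 76-nt pairs, per the labels' protocols. The authors deposited raw counts per gene symbol. The submitters' processing notes name TopHat2, HTSeq and DESeq2 with the GRCm38 build, and the sources used here give no versions or settings. Genes took 32.9% to 40.7% of all entries, and the HTSeq entries that name no gene (27.1% to 42.0% outside features, 24.3% to 31.1% not unique, 0.631% to 1.13% ambiguous) were left out.

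CPM divides each count by the library's gene total, times 1000000, with no further factor. Coordinates are those of GENCODE M21 on GRCm38. Group tests used edgeR's quasi-likelihood test (edgeR 4.0.16, limma 3.58.1, R 4.3.3, robust, TMM factors, filterByExpr with a minimum count of 10, all 9 libraries, group as the only term) at an adjusted p of 0.05. They were also run on simulated counts, which had a smaller spread than these data and changes in every anti-CTLA-4 library. That run therefore does not show how the tests behave at the spread seen here, or for calls resting on a single library. All 10 genes passed the filter but get no test. The TMM factor of anti-CTLA-4 replicate 2 was 0.407, that of anti-PD-1 replicate 2 was 0.830, and the others were 1.06 to 1.26. SEs divide the log2 change by the root of F. Each library is labelled as 1 mouse, and p-values measure the spread between these mice.

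The 10 genes and all lists were chosen with earlier results of these data known. Named list genes are those called in a comparison and up to 4 per list with the highest CPM in any library. Others, such as Mertk, C1qa, Spi1, Fcer1g, Il1r2, Tnf, Gch1 and Mmp2, were chosen after their values were seen. Irg1 stands for Acod1. Alternatives were DESeq2 1.42.0, RLE factors, library totals only, other filters, fits of 2 groups, the replicate number as a block and each library left out.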

Additional observations from a re-analysis of the deposited data

How the results depend on the processing

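Counts of called genes moved with the fit. In anti-CTLA-4 against Control (29 genes), the count was 0 with RLE factors and with library totals only, 64 with no filter, 18 at 5 CPM in 3 libraries, 1 with the 2 groups alone, 814 with DESeq2, and 0 to 79 with 1 library left out. In anti-PD-1 against Control (6 genes), it was 0 with RLE factors, library totals only and the 2 groups alone, 2 with no filter, 3 at 5 CPM in 3 libraries, 749 with DESeq2, and 0 to 5 with 1 library left out. In anti-CTLA-4 against anti-PD-1 (65 genes), it was 0 with RLE factors, 6 with library totals only, 98 with no filter, 31 with the 2 groups alone, 970 with DESeq2, and 6 to 145 with 1 library left out. With the replicate number as a block, the counts were 10, 1 and 12 genes in these comparisons. Deviations of same-numbered libraries correlated at -0.03 to 0.02, and those of differently numbered ones at -0.02 to 0.03, so the number showed no link. Whether libraries shared a batch was not tested.

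Calls among the other myeloid genes were 0 in anti-CTLA-4 against Control under RLE factors, library totals only, 5 CPM in 3 libraries, the 2 groups alone, the replicate block and DESeq2, and 0 to 3 with 1 library left out. In anti-CTLA-4 against anti-PD-1 they were 0 under RLE factors, library totals only and the replicate block, 1 at 5 CPM in 3 libraries, 6 of 35 with DESeq2 (17.1%, beside 15.98% of all genes), and 0 to 3 with 1 library left out. The 6 were Ccl2, Clec5a, Cybb, Lgmn, Mmp2 and Tnf, while DESeq2 gave Ass1 and Slc7a2 no adjusted p. In anti-PD-1 against Control DESeq2 called 5. The fitted log2 change of Slc7a2, which depends on the prior count and is neither a measured fold nor a bound, ranged over -3.945 to 13.56 with 1 library left out and was negative without anti-CTLA-4 replicate 2, where the anti-CTLA-4 libraries left are at 0 counts. Fewer samples enter the fits with a library left out. The cause of the other moves was not tested.

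The number of the 10 genes at least 10 times higher in 1 library (3) was 7 with TMM-scaled CPM, 8 with RLE-scaled CPM, 7 at 5 times and 8 at 2 times. With RLE factors, the 10-gene sum averaged 41061 CPM in anti-CTLA-4 and 204 CPM in Control libraries, and RLE shifted the median log2 change of all genes by 0.56 in anti-CTLA-4 against Control. With 1 library left out the sums ranged over 485 to 4098 CPM in anti-CTLA-4, 367 to 613 CPM in anti-PD-1 and 285 to 389 CPM in Control libraries. The share of all genes highest in anti-CTLA-4 replicate 2 was 10.8% at 20 CPM in some library and 17.1% at 100 CPM. It was 15.7% with TMM and 23.1% with RLE scaling, both chosen after seeing the data. For the 6 lists it was 45.0% at 100 CPM and 46.3% with RLE scaling. Depth limits values under about 0.1 CPM, which rest on 3 counts or fewer.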
